A study of Mus musculus with 8 samples.

Results

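A set of 9 genes of cell adhesion and the epithelial state were followed through knockdown of *Sox2*, *Hnrnpk* and *Cdk9* in mouse ESCs. They are *Cdh1*, *Cdh2*, *Vim*, *Epcam*, *Cldn4*, *Cldn6*, *Cldn7*, *Ocln* and *Tjp1*, 9 of the 55335 genes in the count table. They were chosen by name, with earlier results of these data known, and each symbol matched 1 Ensembl identifier. All 9 passed the filter on low counts that left 16504 genes for testing. E14 ESCs, an established line of mouse embryonic stem cells, were grown on gelatin with LIF, CHIR99021 and PD0325901, infected with lentivirus carrying an shRNA, and selected with puromycin. The 4 groups, each of 2 biological replicates of this 1 line, received the control shRNA (NG) or an shRNA against *Sox2* (Sox2-KD, labelled shSox2), *Hnrnpk* (labelled shHnrnpk) or *Cdk9* (Cdk9-KD, labelled shCdk9). All 4 groups, the control included, therefore share the virus, the selection and the 2 inhibitors. Which of the 2 designed shRNAs per target a library received was not given in the sources used here.

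Adherens junctions join cells through cadherins, which bind their like on the next cell and catenins inside. Tight junctions seal the space between epithelial cells with claudins and occludin, held by ZO-1 at the membrane. ESCs in naive culture grow as compact colonies rich in E-cadherin, and the exchange of E-cadherin for N-cadherin and vimentin is a familiar sign of an epithelial to mesenchymal transition.

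The libraries held 16709201 to 17719366 counts. *Sox2* mRNA was 412.4 and 530.3 CPM in control (counts scaled to library size with TMM factors) and 320.4 and 283.5 CPM in Sox2-KD, a log2FC of -0.64 (SE 0.16, edgeR adjusted p = 0.0479). *Cdk9* was 108.7 and 129.1 CPM in control and 73.08 and 53.17 CPM in Cdk9-KD, a log2FC of -0.91 (SE 0.18) that did not pass the test (edgeR adjusted p = 0.0985). *Hnrnpk* was 1094 and 1131 CPM in control but 697.1 and 1144 CPM in the libraries labelled shHnrnpk. Replicate 2 of that group thus did not show the knockdown at the mRNA level, and every direction given for it rests on the label. All 10 ESC marker genes were detected in every library, with summed levels of 6610 to 8670 CPM. In bulk RNA, a change in the share of cells of a type and a change in RNA per cell cannot be told apart.

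The length-scaled level (RPKM) gave the 9 genes a wide order in control cells. *Cdh1*, which encodes E-cadherin, had the highest level at 98.3 ± 13.4 RPKM (SD, n = 2). It was followed by the intermediate filament gene *Vim* at 56.9 ± 2.94 RPKM and by *Epcam*, a homophilic surface glycoprotein of epithelia and ESCs, at 37.2 ± 3.86 RPKM. *Cldn4* stood at 26.5 ± 2.15 RPKM and *Tjp1*, which encodes ZO-1, at 21 ± 0.449 RPKM. A gap of about an order of magnitude separated these 5 from the rest. *Cldn6* was at 2.18 ± 0.44 RPKM, *Ocln* at 2.09 ± 1.1 RPKM, *Cdh2* at 0.875 ± 0.233 RPKM and *Cldn7* at 0.422 ± 0.0979 RPKM. The control libraries overlapped between neighbours in this order for *Cldn6* and *Ocln* alone. *Cldn4* made up 53.3% to 72.9% of the summed RPKM of 23 claudin genes in the 8 libraries.

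**Figure D1:**
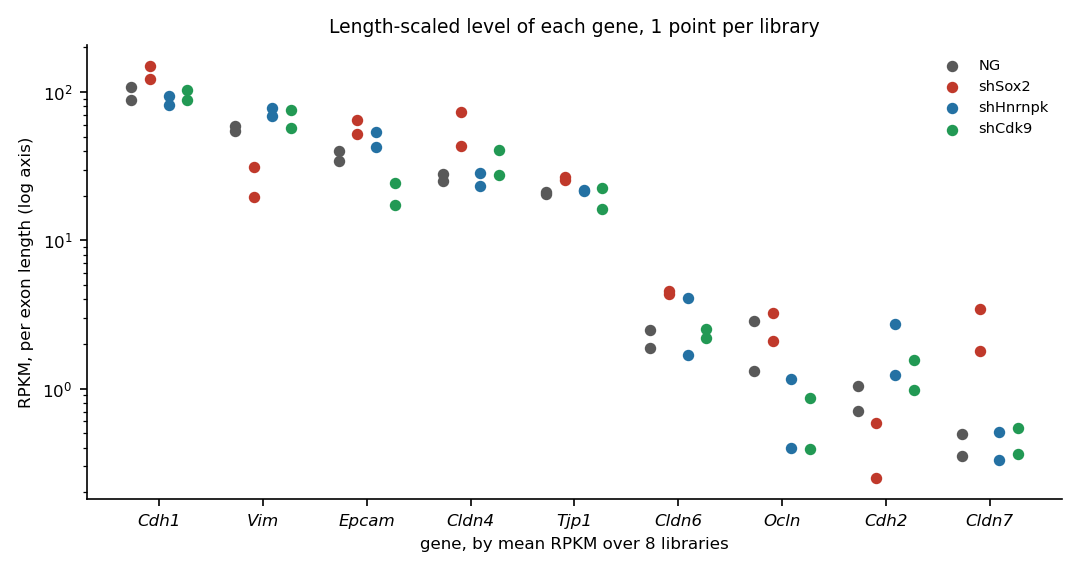
RPKM of the 9 genes (log axis), 1 point per library, grouped by gene and coloured by shRNA; genes are ordered by their mean over the 8 libraries. Cdh1, Vim, Epcam, Cldn4 and Tjp1 lie at 16.28 RPKM or more in all 8 libraries and the other 4 genes at 4.534 RPKM or less.

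Against control, 3 of the 9 genes were called in Sox2-KD (edgeR adjusted p under 0.05 over all genes and an absolute log2FC over 0.6), against a background of 4.32% of tested genes. *Cldn7* and *Cldn4* rose, where 2.63% of all genes did, and *Vim* fell, where 1.69% did. Because the 9 genes were chosen with earlier results known, these shares describe them and are no test of the set. The 2 Sox2-KD libraries did not overlap the 2 control libraries for 8 of the 9 genes, a pattern that 53.3% of all tested genes shared. The median log2FC of the 9 genes was 0.47, with 7 of the 9 positive, against a median of 0.021 over all tested genes. These calls needed both replicates of both groups, apart from replicate 1 of Sox2-KD. With either control library or replicate 2 of Sox2-KD left out, 0 of the 9 genes were called, and without replicate 1 of Sox2-KD the count stayed at 3. Genes called over the whole table fell from 713 to between 144 and 343 in the same refits.

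**Figure D2:**
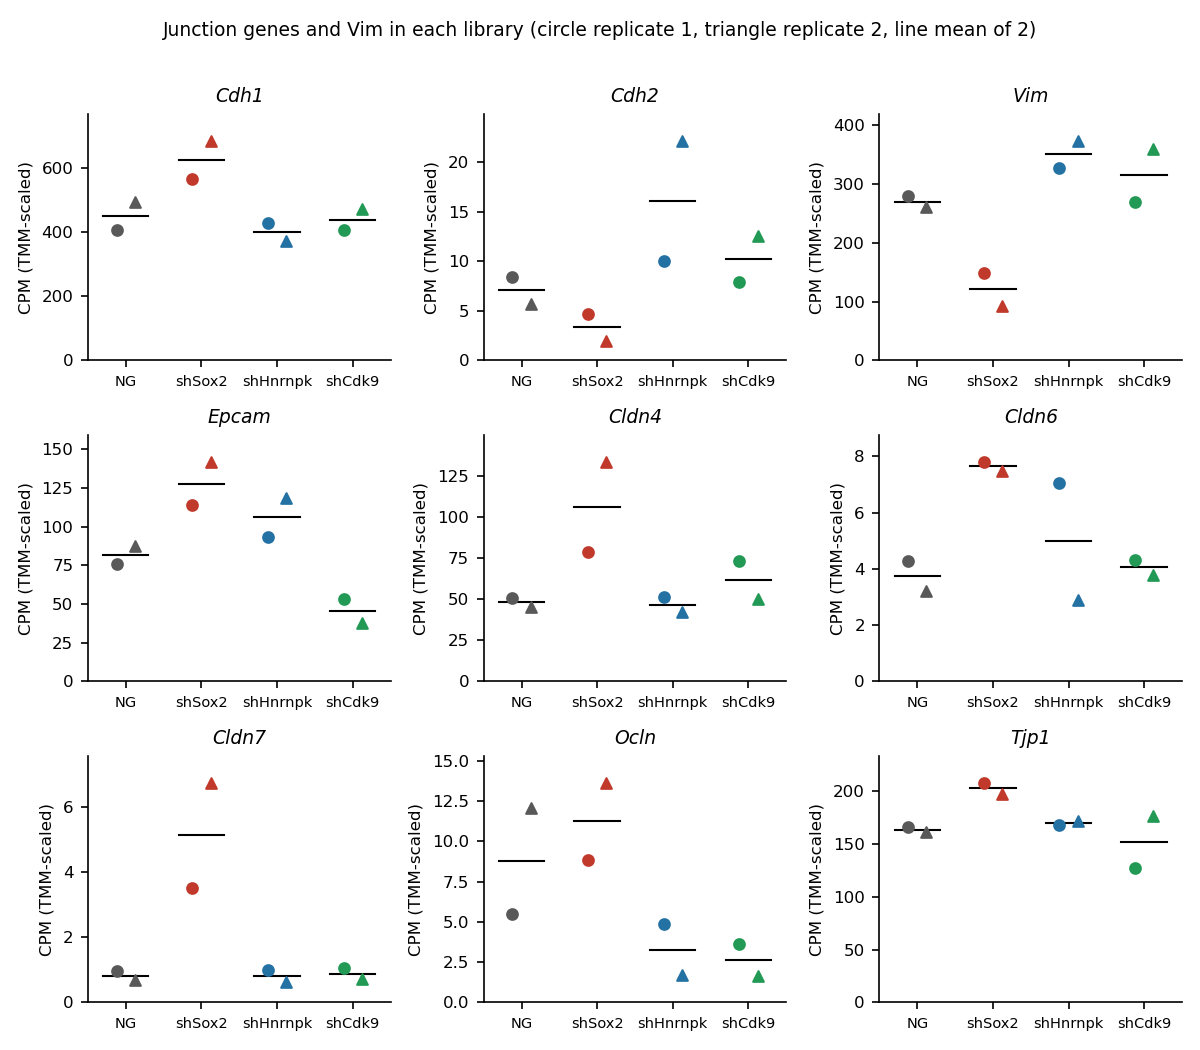
TMM-scaled CPM of the 9 genes in each library, 1 panel per gene with its own linear axis from 0; circles are replicate 1, triangles replicate 2 and lines the mean of the 2. Cldn4, Cldn7, Cdh1, Tjp1 and Cldn6 are above every other library in both Sox2-KD libraries, Vim and Cdh2 are below every other library, and Epcam is lowest in the 2 Cdk9-KD libraries.

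The promoter sequences of 4 of these genes are shown because *Cldn4* and *Cldn7* were called in Sox2-KD and *Epcam* and *Ocln* differed between Sox2-KD and Cdk9-KD. RefSeq windows on GRCm38.p6 were at hand for 7 of the 9 genes, 9 windows in all, and not for *Cdh1* and *Cdh2*. Each sequence gives the 250 bases upstream of an annotated start, 5′ to 3′ on the strand of the gene. They are *Cldn4* at chr5:134946935-134947184 (−), *Cldn7* at chr11:69964529-69964778 (+), *Epcam* at chr17:87635729-87635978 (+) and *Ocln* at chr13:100552719-100552968 (−). Capitals mark matches, on either strand, to 3 motifs. The SOX core was searched as ACAAAG, which reads CTTTGT when seen from the other strand. The E-box of the kind bound by Snail and ZEB proteins was searched as CAGGTG, which reads CACCTG when seen from the other strand. The grainyhead core was searched as ACCGGT and reads the same on both strands.
Cldn4: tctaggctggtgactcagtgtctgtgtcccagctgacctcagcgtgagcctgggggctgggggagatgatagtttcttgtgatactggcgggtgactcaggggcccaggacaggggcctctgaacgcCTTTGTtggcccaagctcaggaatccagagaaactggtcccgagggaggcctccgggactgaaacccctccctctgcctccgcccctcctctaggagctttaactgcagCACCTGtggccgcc
Cldn7: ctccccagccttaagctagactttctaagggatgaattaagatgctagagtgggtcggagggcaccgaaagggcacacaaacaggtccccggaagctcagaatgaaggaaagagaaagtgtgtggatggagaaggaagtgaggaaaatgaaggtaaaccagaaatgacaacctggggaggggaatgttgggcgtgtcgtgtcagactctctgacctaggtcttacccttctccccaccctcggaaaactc
Epcam: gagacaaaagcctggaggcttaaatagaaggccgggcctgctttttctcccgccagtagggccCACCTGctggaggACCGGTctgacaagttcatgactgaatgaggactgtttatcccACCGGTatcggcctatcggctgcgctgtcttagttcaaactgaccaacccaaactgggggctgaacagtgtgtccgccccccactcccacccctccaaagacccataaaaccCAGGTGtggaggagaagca
Ocln: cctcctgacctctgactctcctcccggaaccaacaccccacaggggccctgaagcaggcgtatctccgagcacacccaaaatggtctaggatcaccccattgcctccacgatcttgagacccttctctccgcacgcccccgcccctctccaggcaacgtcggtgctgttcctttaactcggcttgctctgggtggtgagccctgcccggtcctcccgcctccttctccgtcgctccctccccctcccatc
The *Cldn4* window holds 1 SOX core, whose first base lies 123 bases before the start, and 1 E-box, 14 bases before it. The *Epcam* window holds 2 E-boxes and 2 grainyhead cores. The windows shown for *Cldn7* and *Ocln* hold none of the 3 motifs. Each of these 2 genes has another annotated start. The window before it lies wholly inside the annotated gene for *Cldn7* and mostly inside it for *Ocln*. That window, not printed, holds 2 E-boxes. Their first bases lie 97 and 57 bases before that start in *Cldn7* and 213 and 68 bases before it in *Ocln*. *Vim* was also called in Sox2-KD, and its window, which lies inside the annotated gene, is not printed. The windows of *Vim* and *Tjp1* hold none of the 3 motifs, and that of *Cldn6* holds 1 E-box. The SOX core occurs in 16.5% of all 32851 windows of this length, the E-box in 17.2% and the grainyhead core in 1.86%. None of the motifs overlaps another in these windows. The matches describe letters, and binding was not measured here.

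*Cldn7* had the largest log2FC of the 9 genes in Sox2-KD. The gene (ENSMUSG00000018569.12) lies on chromosome 11 from 69964779 to 69967885 in GRCm38 and encodes a claudin of epithelial tight junctions and lateral membranes that also binds EpCAM. It was counted 17 and 12 times in control, 64 and 118 times in Sox2-KD, 17 and 11 times in the libraries labelled shHnrnpk, and 18 and 12 times in Cdk9-KD. Both Sox2-KD libraries were thus well above the 6 others, which lay close together. The log2FC against control was 2.63 (SE 0.47, 95% interval 1.58 to 3.67, edgeR adjusted p = 0.0141). Even so its level in Sox2-KD, 2.63 ± 1.17 RPKM, remained low beside that of *Cldn4*. It made up 2.63% and 3.43% of summed claudin RPKM in the 2 Sox2-KD libraries and at most 1.02% in the others.

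*Cldn4* (ENSMUSG00000047501.3, chromosome 5 from 134945119 to 134946934) encodes the claudin with the highest RPKM of the family in these cells. Its level was 50.9 and 45.37 CPM in control and 78.63 and 133.5 CPM in Sox2-KD. It was 51.36 and 42.02 CPM in the libraries labelled shHnrnpk and 73.49 and 50.03 CPM in Cdk9-KD. Both Sox2-KD libraries lay above the 6 others, the lower of them only slightly above replicate 1 of Cdk9-KD. The log2FC against control was 1.14 (SE 0.26, 95% interval 0.57 to 1.71, edgeR adjusted p = 0.0351). *Cldn3*, another claudin gene 39280 bases away on the same chromosome, had a log2FC of -0.09 (SE 0.37, edgeR adjusted p = 0.923).

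*Cldn6* (ENSMUSG00000023906.3, chromosome 17 from 23679249 to 23682446), a claudin of early embryonic epithelia and pluripotent cells, was not called. It was at 4.28 and 3.208 CPM in control, 7.803 and 7.476 CPM in Sox2-KD, 7.035 and 2.91 CPM in the libraries labelled shHnrnpk and 4.323 and 3.785 CPM in Cdk9-KD. Sox2-KD stood above the rest in both replicates, though replicate 1 of the libraries labelled shHnrnpk came near. The log2FC in Sox2-KD was 1.03 (SE 0.39, 95% interval 0.16 to 1.89, edgeR adjusted p = 0.179). *Cldn9*, only 138 bases away, was counted 1 to 5 times per library.

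*Vim* (ENSMUSG00000026728.9, chromosome 2 from 13573927 to 13582826) fell in Sox2-KD. Its level was 279.6 and 259.9 CPM in control and 148.1 and 93.14 CPM in Sox2-KD. It was 327.5 and 372.9 CPM in the libraries labelled shHnrnpk and 269.3 and 359.2 CPM in Cdk9-KD. The Sox2-KD libraries were the lowest of the 8 and did not overlap any other group. The log2FC against control was -1.16 (SE 0.22, 95% interval -1.64 to -0.68, edgeR adjusted p = 0.0171). In the libraries labelled shHnrnpk it was 0.38 (SE 0.22, edgeR adjusted p = 0.723) and in Cdk9-KD 0.22 (SE 0.22, edgeR adjusted p = 0.779), and neither was called.

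The 2 classical cadherins had log2FCs of opposite sign in Sox2-KD, and neither was called against control. *Cdh1* (ENSMUSG00000000303.12, chromosome 8 from 106603351 to 106670246) was at 406.3 and 492.9 CPM in control, 564.6 and 684.2 CPM in Sox2-KD, 428.4 and 372 CPM in the libraries labelled shHnrnpk and 405.1 and 470.3 CPM in Cdk9-KD. Both Sox2-KD libraries were above the 6 others. The log2FC of *Cdh1* was 0.47 (SE 0.16, 95% interval 0.11 to 0.84, edgeR adjusted p = 0.139). *Cdh2* (ENSMUSG00000024304.14, chromosome 18 from 16588877 to 16809246), which encodes N-cadherin, was counted 149 and 100 times in control, 86 and 35 times in Sox2-KD, 171 and 380 times in the libraries labelled shHnrnpk and 136 and 212 times in Cdk9-KD. Its Sox2-KD libraries were the lowest and replicate 2 of the libraries labelled shHnrnpk the highest. The log2FC of *Cdh2* was -1.07 in Sox2-KD (SE 0.47, 95% interval -2.11 to -0.02, edgeR adjusted p = 0.251) and 1.19 in the libraries labelled shHnrnpk (SE 0.45, 95% interval 0.19 to 2.18, edgeR adjusted p = 0.546).

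E-cadherin mRNA far exceeded N-cadherin mRNA in every library. The ratio of their RPKM was 85.4 and 152 in control and 211 and 604 in Sox2-KD. It was 75.3 and 29.7 in the libraries labelled shHnrnpk and 89.9 and 66.2 in Cdk9-KD. The Sox2-KD libraries had the highest ratios, with the 2 replicates far from each other, since *Cdh2* was counted only 35 times in replicate 2. The ratio of *Cdh1* to *Vim* was 3.95 and 7.62 in Sox2-KD and 1.03 to 1.97 in the 6 others.

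*Epcam* (ENSMUSG00000045394.9, chromosome 17 from 87635979 to 87651129) had log2FCs of opposite sign in Sox2-KD and Cdk9-KD. It was at 75.74 and 87.71 CPM in control, 113.8 and 141.9 CPM in Sox2-KD, 93.28 and 118.8 CPM in the libraries labelled shHnrnpk and 53.45 and 37.97 CPM in Cdk9-KD. The Cdk9-KD libraries were the lowest of the 8, and the 2 other knockdown groups lay above both control libraries. The log2FC was 0.65 in Sox2-KD (SE 0.2, edgeR adjusted p = 0.103) and -0.84 in Cdk9-KD (SE 0.2, edgeR adjusted p = 0.192), and neither was called. DESeq2 called the difference in Cdk9-KD, with a log2FC of -0.86 (DESeq2 adjusted p = 0.0123).

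*Ocln* (ENSMUSG00000021638.12, chromosome 13 from 100496507 to 100552718), which encodes the tight junction protein occludin, was counted 98 and 211 times in control. It was counted 161 and 239 times in Sox2-KD, 83 and 29 times in the libraries labelled shHnrnpk and 62 and 28 times in Cdk9-KD. Sox2-KD overlapped control, and the 4 libraries of the other 2 knockdowns were below both control libraries, which themselves differed widely. The log2FC was 0.35 in Sox2-KD (SE 0.51, 95% interval -0.78 to 1.49, edgeR adjusted p = 0.763), and its sign turned to -0.12 without replicate 1 of control. It was -1.42 in the libraries labelled shHnrnpk (SE 0.54, edgeR adjusted p = 0.546) and -1.73 in Cdk9-KD (SE 0.55, edgeR adjusted p = 0.317). DESeq2 called *Ocln* in Cdk9-KD (log2FC -1.76, DESeq2 adjusted p = 0.0382).

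*Tjp1* (ENSMUSG00000030516.14, chromosome 7 from 65296165 to 65527781), the plaque protein that ties claudins to actin, had the narrowest range of the 9 genes. It was at 166.3 and 161.3 CPM in control, 208 and 197.7 CPM in Sox2-KD, 168.3 and 171.9 CPM in the libraries labelled shHnrnpk and 127.2 and 176.8 CPM in Cdk9-KD. Sox2-KD stood above the others, and Cdk9-KD straddled control. The log2FC in Sox2-KD was 0.31 (SE 0.16, 95% interval -0.05 to 0.67, edgeR adjusted p = 0.346).

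**Figure D3:**
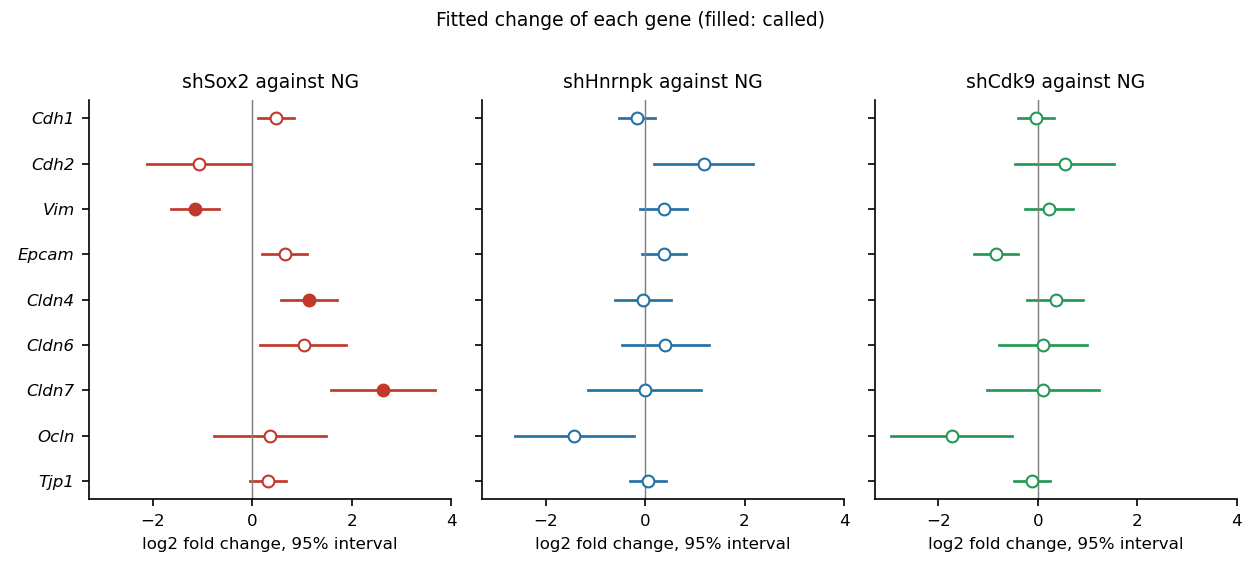
Log2 fold change (points) and 95% interval (lines) of the 9 genes in each knockdown against control, on 1 shared axis; filled points are called, and 0 is marked. Vim, Cldn4 and Cldn7 are filled in shSox2, and no point is filled in shHnrnpk or shCdk9.

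In the libraries labelled shHnrnpk, 0 of the 9 genes were called against control, where 0% of all tested genes were. In that comparison edgeR gave 1325 genes, 8.03% of those tested, at an unadjusted p under 0.05, and DESeq2 called 91 genes and 0 of the 9. The groups did not overlap for 5 of the 9 genes, against 39.1% of all tested genes. In Cdk9-KD, edgeR called 0 of the 9 genes and 0.139% of all tested genes. DESeq2 called 2 of the 9, *Epcam* and *Ocln*. It also called more genes than edgeR over the whole table, as given in the last section, so the edgeR share is not its background. Unadjusted p from edgeR was under 0.05 for 1720 genes, 10.4% of those tested, in that comparison. The groups did not overlap for 2 of the 9 genes, against 39.2% of all tested genes. The 3 comparisons share the 2 control libraries.

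The knockdowns were then compared with each other, which tests the difference between them itself. Between Sox2-KD and the libraries labelled shHnrnpk, 5 of the 9 genes were called, against 5.9% of all tested genes. *Cldn7* (log2FC 2.64, SE 0.47, edgeR adjusted p = 0.0132), *Cldn4* (1.18, SE 0.26, edgeR adjusted p = 0.0266) and *Cdh1* (0.64, SE 0.16, edgeR adjusted p = 0.0466) were higher in Sox2-KD, where 3.95% of all genes were. *Vim* (-1.54, SE 0.22, edgeR adjusted p = 0.00534) and *Cdh2* (-2.25, SE 0.48, edgeR adjusted p = 0.0244) were lower, where 1.95% of all genes were. Without replicate 2 of the libraries labelled shHnrnpk, the one whose *Hnrnpk* level was not reduced, only *Vim* was called, and the same count of 1 was left without replicate 2 of Sox2-KD. The call of *Cdh1* held in 2 of 9 alternative analyses, with adjusted p from 0.0104 to 0.378, whereas that of *Vim* held in all 9.

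Between Sox2-KD and Cdk9-KD, 4 of the 9 genes were called, against 7.33% of all tested genes. *Epcam* was higher in Sox2-KD with a log2FC of 1.48 (SE 0.21, 95% interval 1.03 to 1.94, edgeR adjusted p = 0.00285), and so were *Cldn7* (2.53, SE 0.47, edgeR adjusted p = 0.0108) and *Ocln* (2.09, SE 0.55, edgeR adjusted p = 0.046), in a direction taken by 4.77% of all genes. *Vim* was lower (-1.38, SE 0.22, edgeR adjusted p = 0.0051), as were 2.56% of all genes. The calls of *Epcam* and *Vim* held in all 9 alternatives and that of *Ocln* in 3 of 9, and 2 of the 9 genes were called without replicate 2 of Sox2-KD. *Cldn4* (0.78, SE 0.25, 95% interval 0.22 to 1.34, edgeR adjusted p = 0.0947) was not called. Between Cdk9-KD and the libraries labelled shHnrnpk, 0 of the 9 genes and 0% of all tested genes were called. Unadjusted p from edgeR was under 0.05 for 943 genes, 5.71% of those tested. *Epcam* had a log2FC of -1.21 there (SE 0.2, edgeR adjusted p = 0.297), which DESeq2 called (log2FC -1.22, DESeq2 adjusted p = 6.44e-05).

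The 9 genes were set beside 8 lists of junction, polarity and epithelial or mesenchymal genes, 116 genes with the 9 included, of which 86 were tested. The lists too were chosen with earlier results of these data known, so the share of them called is no test of the lists. In Sox2-KD, 12 of the 86 rose and 5 fell, 19.8% in all, beside 4.32% of all tested genes. Their median log2FC was 0.33, beside 0.021 over all tested genes. These 17 fell to 3 without either control library, to 4 without replicate 2 of Sox2-KD and to 7 without replicate 1 of Sox2-KD. Among the 86, 0 were called in the libraries labelled shHnrnpk, and 1 fell in Cdk9-KD. That gene was *Tfap2c*, an AP-2 transcription factor of trophoblast and germ cells, with a log2FC of -2.04 (SE 0.31, edgeR adjusted p = 0.0416), and its call was lost without either control library and without replicate 2 of Cdk9-KD.

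Claudins and tight junction proteins held calls in both directions in Sox2-KD. Of 10 tested claudin list genes, *Cldn4* and *Cldn7* rose and 0 fell, with a median log2FC of 0.51. *Cldn12* had the next highest RPKM after *Cldn4* in control among the claudin genes, not counting the related list gene *Cldnd1*. Its log2FC was 0.19 (SE 0.2, edgeR adjusted p = 0.647). Of 13 other tight junction genes, 2 rose and 1 fell. *Marveld2*, which encodes tricellulin, was counted 36 and 48 times in control and 112 and 202 times in Sox2-KD (log2FC 1.88, SE 0.41, edgeR adjusted p = 0.0296). *F11r*, which encodes the adhesion molecule JAM-A, was 39.92 and 48.46 CPM in control and 68.57 and 83.43 CPM in Sox2-KD (log2FC 0.78, SE 0.17, edgeR adjusted p = 0.0274). Its relative *Jam3*, which encodes JAM-C, went the other way, from 40.49 and 38.5 CPM to 15.17 and 12.38 CPM (log2FC -1.52, SE 0.18, edgeR adjusted p = 0.0025).

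Adherens junction genes were likewise mixed. Of 15 tested cadherin and catenin genes, 1 rose and 2 fell. *Jup*, which encodes plakoglobin, rose (log2FC 0.63, SE 0.14, edgeR adjusted p = 0.0295). *Cdh3*, which encodes P-cadherin, fell from 11.99 and 13.58 CPM to 6.429 and 5.307 CPM (log2FC -1.12, SE 0.22, edgeR adjusted p = 0.0215), and *Ctnnd2*, a delta-catenin, fell as well (log2FC -1.05, SE 0.26, edgeR adjusted p = 0.0499). *Ctnnb1*, which encodes β-catenin, had a log2FC of 0 (SE 0.15, 95% interval -0.33 to 0.33). Of 7 tested desmosome genes, 3 rose and 0 fell, led by the desmocollin gene *Dsc2* with 20 and 22 counts in control and 156 and 92 in Sox2-KD (log2FC 2.53, SE 0.45, edgeR adjusted p = 0.013). The others were the plakophilin gene *Pkp2* (log2FC 0.98, SE 0.24, edgeR adjusted p = 0.0449) and the desmoglein gene *Dsg2* (log2FC 0.62, SE 0.15, edgeR adjusted p = 0.044).

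Of 13 tested polarity genes, 2 rose and 1 fell. The Crumbs complex scaffold gene *Patj* rose from 3.998 and 4.468 CPM to 15.33 and 23.11 CPM (log2FC 2.18, SE 0.3, edgeR adjusted p = 0.00497), and *Llgl2*, a basolateral polarity gene, rose with a log2FC of 0.77 (SE 0.14, edgeR adjusted p = 0.0141). *Pard6g*, of the PAR complex, fell (log2FC -0.84, SE 0.19, edgeR adjusted p = 0.0377). Of the 8 genes reported from the list of *Epcam* and surface proteases, 7 had a positive log2FC, with a median of 0.53, and their differences from control did not pass the test. Of 10 tested epithelial transcription and splicing regulators, 1 rose, *Grhl3*, a grainyhead factor (log2FC 0.7, SE 0.17, edgeR adjusted p = 0.0498), at the edge of the threshold. *Grhl2*, which is known to act on claudin and *Cdh1* genes in epithelia, was counted 33 and 144 times in control and 50 and 126 times in Sox2-KD, with log2FC -0.02 (SE 0.62).

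Of 10 tested mesenchymal and EMT genes, *Vim* fell and 1 rose. The gene that rose was *Sparc*, which encodes a secreted matrix protein made by many mesenchymal cells and by parietal endoderm, from 130 and 177.9 CPM to 353.5 and 469.3 CPM (log2FC 1.42, SE 0.2, edgeR adjusted p = 0.00563). The EMT transcription factor genes *Snai1* (log2FC 0.31, SE 0.33, edgeR adjusted p = 0.656) and *Zeb1* (log2FC -0.23, SE 0.18, edgeR adjusted p = 0.536) were not called. The list thus moved in no single direction, with 6 of 10 log2FCs positive and a median of 0.16.

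Of the same 86 genes, 12 were higher and 4 lower in Sox2-KD than in the libraries labelled shHnrnpk, 18.6% in all beside 5.9% of all tested genes. Against Cdk9-KD, 14 were higher and 5 lower in Sox2-KD, 22.1% beside 7.33% of all tested genes. Without replicate 2 of the libraries labelled shHnrnpk, the first of these counts became 0 higher and 3 lower. *Cgn*, which encodes the tight junction plaque protein cingulin, was called in both, with 11.81 and 17.12 CPM in Sox2-KD, 5.277 and 3.259 CPM in the libraries labelled shHnrnpk (log2FC 1.76, SE 0.31, edgeR adjusted p = 0.0115) and 5.024 and 4.613 CPM in Cdk9-KD (log2FC 1.58, SE 0.3, edgeR adjusted p = 0.012). In control it was at 7.039 and 6.989 CPM, and the difference of Sox2-KD from control was not called (log2FC 1.04, SE 0.3, edgeR adjusted p = 0.0775). Of the epithelial regulators, 4 were higher in Sox2-KD than in Cdk9-KD, namely *Grhl3* (log2FC 1.25, SE 0.18), *Tfap2c* (1.55, SE 0.31), *Grhl1* (1.15, SE 0.29) and the splicing regulator *Esrp2* (0.98, SE 0.23). Of these, *Grhl3* alone was called in Sox2-KD against control. There the log2FC was -0.5 for *Tfap2c* (SE 0.29), 0.2 for *Grhl1* (SE 0.28) and 0.93 for *Esrp2* (SE 0.23).

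**Figure D4:**
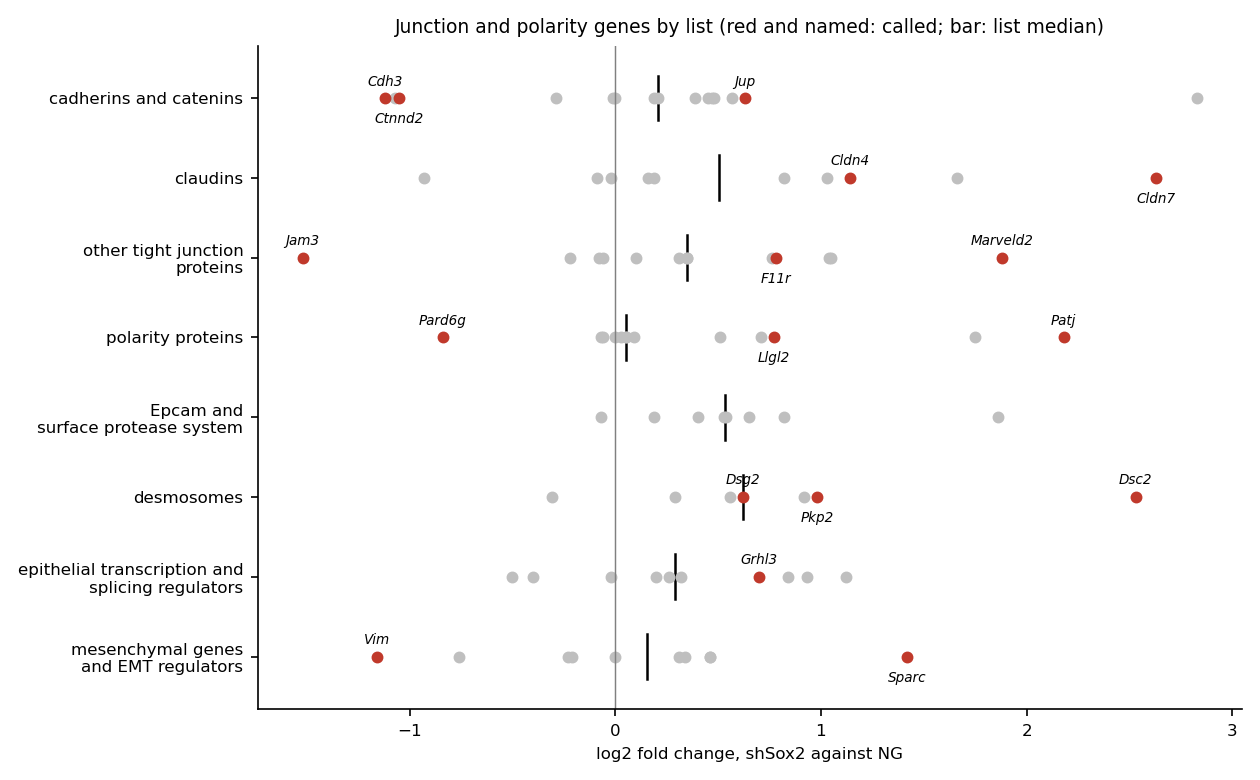
Log2 fold change in shSox2 against NG for the 86 tested genes of the 8 lists, 1 point per gene; red named points are called, grey points are not, and black bars are list medians. Red points lie on both sides of 0 in the cadherin, tight junction, polarity and mesenchymal lists and only to the right of 0 in the claudin, desmosome and regulator lists, and the Epcam list has none.

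Of the 10 ESC marker genes, 1 rose in Sox2-KD, *Utf1* (log2FC 0.8, SE 0.18, edgeR adjusted p = 0.0328), and 0 fell. In this list 3 of the 10 log2FCs were positive, with a median of -0.2. Against control, markers of other cell types were called in both directions in Sox2-KD, and 1 trophectoderm gene was called higher in Cdk9-KD. Summed over 10 trophectoderm genes, the level was 53.4 and 72 CPM in control, 169 and 307 CPM in Sox2-KD, 77.4 and 126 CPM in the libraries labelled shHnrnpk and 84.5 and 93.1 CPM in Cdk9-KD. Most of the Sox2-KD sum came from *Krt8*, at 97.15 and 181.9 CPM, and *Krt18*, at 41.43 and 82.75 CPM. In control *Krt8* was at 18.36 and 17.36 CPM and *Krt18* at 3.266 and 2.864 CPM. Of 8 tested trophectoderm genes, 5 rose in Sox2-KD. Among them were the simple epithelial keratin genes *Krt8* (log2FC 2.97, SE 0.31, edgeR adjusted p = 0.00232) and *Krt18* (log2FC 4.34, SE 0.52, edgeR adjusted p = 0.00282). The others were the keratin gene *Krt7* (log2FC 3.81, SE 0.64, edgeR adjusted p = 0.011) and the transcription factor genes *Gata3* (log2FC 3.48, SE 0.58, edgeR adjusted p = 0.0103) and *Eomes* (log2FC 1.5, SE 0.28, edgeR adjusted p = 0.0166). *Krt8* has an annotated pseudogene, so that its reads may be shared. The defining factor *Cdx2* was not among the 5, at 351 and 613 counts in control and 111 and 109 in Sox2-KD. Its difference was not called (log2FC -2.15, SE 0.54, edgeR adjusted p = 0.0521). *Eomes* was highest in Cdk9-KD, at 19.45 and 14.25 CPM. It was at 8.956 and 9.245 CPM in Sox2-KD, 8.091 and 7.915 CPM in the libraries labelled shHnrnpk and 3.829 and 2.578 CPM in control. Of 7 tested primitive endoderm genes, 2 rose and 1 fell in Sox2-KD, with 5 of the 7 log2FCs positive and a median of 0.83. *Dab2*, an endocytic adaptor gene of this lineage, was counted 12 and 15 times in control and 637 and 950 times in Sox2-KD (log2FC 5.85, SE 0.4, edgeR adjusted p = 0.000187). *Gata6*, the gene of a defining transcription factor, was counted 4 and 5 times in control and 49 and 68 times in Sox2-KD (log2FC 3.65, SE 0.62, edgeR adjusted p = 0.0111). The laminin gene *Lama1* fell from 242.5 and 217.1 CPM to 88.85 and 138.7 CPM (log2FC -1.01, SE 0.2, edgeR adjusted p = 0.0215). It made up most of the summed level of this list, which was 134 and 203 CPM in Sox2-KD and 223 to 348 CPM in the other 6 libraries. The summed fibroblast markers were 8.85 to 18.3 CPM over the 8 libraries, 6.46 to 13.35 CPM of it from *Pdgfrb*, with 1 to 5 of the 9 genes at 0 in each. Of 5 tested fibroblast genes, 1 rose, the proteoglycan gene *Lum*, which was counted 0 and 1 times in control and 23 and 13 times in Sox2-KD (edgeR adjusted p = 0.027). *Col1a2* was counted 32 and 24 times in control and 4 and 1 times in Sox2-KD. Its difference was not called (log2FC -3.44, SE 0.89, edgeR adjusted p = 0.0565). In this list 2 of the 5 log2FCs were positive, with a median of -0.28. Of 3 tested neural genes, 1 fell, the transcription factor gene *Sox1*, from 100 and 52 counts to 10 and 9 (log2FC -3, SE 0.5, edgeR adjusted p = 0.0102). The summed neural markers were 22.7 and 21.4 CPM in Sox2-KD and 27.3 to 46.4 CPM in the other 6 libraries. At most 2 of the 10 trophectoderm and 3 of the 10 primitive endoderm genes were at 0 in a library. The part of these cell types in the changes of *Cldn4*, *Cldn7* and *Vim* was not tested.

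Across the 8 libraries, the genes whose log2 CPM ran most like that of each called gene were sought among 12522 genes with an average log2 CPM over 1. For *Cldn7* they were *Slc25a23* (Pearson r = 0.987), *Krt18* (0.986) and *Tmem59* (0.985). For *Vim* they were *Lpar4* (0.995), *Armcx4* (0.994) and *Armcx1* (0.99), and for *Cldn4* they were *Dnm1* (0.989), *Sgms2* (0.984) and *Camk1* (0.977). Among the 9 genes themselves, r was 0.94 between *Cldn4* and *Cldn7*, -0.97 between *Vim* and *Cldn7*, 0.93 between *Vim* and *Cdh2* and -0.89 between *Cdh1* and *Cdh2*. These values describe 8 points in 4 groups, in which the 2 Sox2-KD libraries lie apart from the rest.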

How the data were processed

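RNA-seq of poly(A) RNA (paired reads on an MGISEQ-2000) was done on 8 libraries. The authors trimmed reads with Trimmomatic, aligned them with STAR (2.7.9a in the submitters' processing notes, where the paper's methods name another release) to mm10 with GENCODE vM23, and deposited raw counts per gene from featureCounts 2.0.1. Strand and multi-mapping settings were not given in the sources used here, but genes overlapping the 9 held 0 to 3 counts in all. Symbols, lengths and positions came from GENCODE vM21, and 181 identifiers had no symbol there.

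Counts were tested with edgeR 4.0.16 in R 4.3.3: filterByExpr (minimum count 10, total 15), TMM, 1 fit of all 8 libraries with a group term, the quasi-likelihood test, with p adjusted by Benjamini-Hochberg over all 16504 genes. Calls needed an adjusted p under 0.05 together with a log2FC beyond 0.6 in either direction. RPKM used TMM-scaled CPM and exon length. The spread covers biological duplicates of 1 line only.

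Alternatives were DESeq2 1.42.0, its size factors, no filter, a replicate block, only the 4 libraries compared, and leaving out each library. The test was tried on counts simulated with the spread fitted to these same data, so that trial could not check the spread itself.

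Named genes are the 9, called list genes (at most 4 per list and comparison), 3 most correlated genes per called gene and the 3 targets. *Cldn3*, *Cldn9*, *Cldn12*, *Ctnnb1*, *Grhl2*, *Snai1*, *Zeb1* and the cell-type markers were added after values were seen. The 9 genes and the lists were chosen with earlier results of these data known. A list gene is not reported here and was left out of the list counts. Figures used matplotlib 3.10.9.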

Additional observations from a re-analysis of the deposited data

Results flagged for a closer look

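The differences below were found between knockdown groups by a test of the difference itself (edgeR quasi-likelihood test), and each is the log2FC of the first group over the second. Between Sox2-KD and the libraries labelled shHnrnpk, they were 2.64 for *Cldn7*, 1.18 for *Cldn4*, 0.64 for *Cdh1*, -1.54 for *Vim* and -2.25 for *Cdh2*. Of these, that of *Vim* alone was called both without replicate 2 of the libraries labelled shHnrnpk and without replicate 2 of Sox2-KD. Between Sox2-KD and Cdk9-KD, they were 1.48 for *Epcam*, 2.53 for *Cldn7*, 2.09 for *Ocln* and -1.38 for *Vim*.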

How the results depend on the processing

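Over the 9 genes and 6 comparisons, 423 of the alternative log2FCs kept direction and side of the threshold, 31 lost and 10 gained a call, and 22 changed sign, all of them of genes not called and all with a library left out. DESeq2 called 91 genes for shHnrnpk and 229 for Cdk9-KD against control, 2 of the 9 genes for Cdk9-KD against control and 1 for Cdk9-KD against shHnrnpk. Without the filter, 1 gene was called for shHnrnpk. With the replicate block, 15 genes were called for Cdk9-KD against control. For each gene, the deviation of a library's log2 CPM from its group mean was taken. Across genes, these deviations correlated at -0.223 to 0.21 between same-numbered libraries of 2 groups, so the numbers were not taken as pairs. The block left 3, 0 and 0 of the 9 genes called in Sox2-KD, shHnrnpk and Cdk9-KD against control. The cause of these shifts was not tested.

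With 1 library left out, Sox2-KD against control gave 144 to 343 called genes and 0 to 3 of the 9, shHnrnpk against control 0 to 1 genes, and Cdk9-KD against control 0 to 32 genes. The 9 gave 1 to 4 called in Sox2-KD against shHnrnpk and 2 to 5 in Sox2-KD against Cdk9-KD. A lone library left in a group was assumed to vary like the others.

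The log2FCs that changed sign when 1 library was left out ranged as follows. In Sox2-KD against control it ran from -0.12 to 1.02 for *Ocln*. In shHnrnpk against control they ran from -0.21 to 0.07 for *Cldn4*, -0.37 to 0.25 for *Cldn7* and -0.37 to 0.89 for *Cldn6*. In Cdk9-KD against control they ran from -0.21 to 0.08 for *Cdh1*, -0.11 to 0.3 for *Cldn6*, -0.24 to 0.35 for *Cldn7*, -0.36 to 0.08 for *Tjp1* and 0 to 0.38 for *Vim*. In Cdk9-KD against shHnrnpk they ran from -0.22 to 0.43 for *Cldn7*, -0.42 to 0.04 for *Tjp1*, -0.38 to 0.02 for *Vim*, -0.99 to 0.62 for *Ocln*, -0.8 to 0.45 for *Cldn6* and -1.13 to 0.02 for *Cdh2*.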
